A study of Mus musculus with 9 samples.

Results

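The loci of Hand2, Twist1 and Twist2 were examined for binding of HOXA13 and HOXD13 in mouse distal forelimb cells. A site belonged to a gene when a summit, the position of highest signal within a called peak, lay in the gene body or within 200 kb on either side, with gene models from GENCODE on mm10. The 9 peak lists held 1045 such summits in 645 intervals, and intervals of different lists that overlapped by at least 1 base were merged into 178 sites, out of 197737 merged sites on chromosomes 1 to 19, X and Y. Hand2 had 67 sites, Twist1 had 51 and Twist2 had 60, and the 3 windows together covered 1.252 Mb.

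Binding was profiled by CUT&RUN, in which an antibody tethers a nuclease to chromatin and the released fragments are sequenced. Each of the 9 libraries came from pooled distal forelimb cells of several B6CBAF1 embryos. Wild-type (wt) embryos at E12.5 gave 3 HOXA13 and 3 HOXD13 libraries, of which HOXD13 replicate 3 is labelled as a reanalysis of an earlier library, and replicates are separate pools. The II1 T-DOM 542 line (542), homozygous for 1 copy of the HoxD limb enhancer II1 with an HBB promoter and lacZ placed on chromosome 2, gave 2 libraries for HOXA13 at E12.5. For HOXD13 it gave 1, titled E11.5, although the growth protocol describes 1 collection day. Reads of the 542 libraries were mapped on a genome carrying the insert, so genotype cannot be told apart from mapping genome, but none of these 3 genes is on chromosome 2. Depth recovered from the lists ran from 36.91 M to 65.49 M read ends and the lists held 23939 to 117719 intervals. Replicate 3 had the fewest intervals at a fold enrichment of 5 or more for both antibodies in wt, with 7282 against 15640 and 27940 for HOXA13 and 4794 against 5800 and 16011 for HOXD13. Peak lists measure no RNA, so the tissue label could not be checked against marker genes.

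HAND2, TWIST1 and TWIST2 are basic helix-loop-helix (bHLH) transcription factors that pair with each other or with widely expressed E proteins and bind E-box sequences, while Id proteins lack the basic region and hold E proteins away from DNA. Hand2 sets posterior identity in the early limb bud and acts upstream of Shh. Twist1 maintains limb mesenchyme and its signalling with the overlying ectoderm, and Twist2 is best known in dermal and connective tissue progenitors. HOXA13 and HOXD13 are the homeodomain proteins of the digit territory.

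Sites are named by gene and by distance of the strongest summit from the gene start. The DNA under 6 of them is shown because all 6 were called in all 9 lists and because they differ in whether the HOX13 consensus is present near the summit. The choice leans to sites with the consensus. Of the 23 member sites called in all 9 lists, 5 held it within 100 bp centred on the summit. The consensus was searched on both strands as CCNATAAA, CCNGTAAA, CTNATAAA and CTNGTAAA, and capitals mark each match. Each stretch is 101 bases of the GRCm38 plus strand centred on the strongest summit. The Hand2 sites are at chr8:57214958-57215058, chr8:57320088-57320188 and chr8:57333775-57333875. The Twist1 site is at chr12:33957491-33957591, and the Twist2 sites are at chr1:91644890-91644990 and chr1:91770772-91770872.
Hand2 -106.0 kb: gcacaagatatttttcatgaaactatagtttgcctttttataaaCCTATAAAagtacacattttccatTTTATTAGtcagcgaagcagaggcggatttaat
Hand2 -0.8 kb: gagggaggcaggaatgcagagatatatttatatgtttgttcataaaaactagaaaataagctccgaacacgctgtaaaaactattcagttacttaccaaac
Hand2 +12.8 kb: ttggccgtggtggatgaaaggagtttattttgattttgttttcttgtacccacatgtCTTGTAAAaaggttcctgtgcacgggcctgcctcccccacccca
Twist1 -0.1 kb: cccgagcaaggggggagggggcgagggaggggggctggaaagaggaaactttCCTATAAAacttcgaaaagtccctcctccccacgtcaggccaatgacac
Twist2 -156.5 kb: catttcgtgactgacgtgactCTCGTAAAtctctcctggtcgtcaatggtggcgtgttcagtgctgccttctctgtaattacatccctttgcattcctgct
Twist2 -30.6 kb: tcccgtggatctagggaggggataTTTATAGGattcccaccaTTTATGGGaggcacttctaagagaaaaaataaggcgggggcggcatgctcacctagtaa

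The Hand2 -106.0 kb window held 2 matches, starting -6 and 18 bases from the summit, and the Twist2 -30.6 kb window held 2 matches on the minus strand, starting -26 and -8 bases from it. The Twist1 promoter window held CCTATAAA starting 2 bases past the summit, and these letters also contain the TATAAA of a TATA box. That summit lay 130 bp upstream of the annotated start, and use of the letters as a TATA box was not tested. No match lay in the window of the Hand2 promoter. Within 50 bases centred on the summit, 21 of the 178 sites (11.8%) held a match, against 10.3% of all merged sites off chromosome 2 and 2.37% of windows 1000 bp to either side of those sites. Among sites called in all 9 lists the share was 17.4% (4 of 23) around the 3 genes and 15.3% (1837 of 11968) over all such sites. The member shares were thus close to those of the genome at the same number of lists. By gene, matches were found at 8 of 67 Hand2 sites, 10 of 51 Twist1 sites and 3 of 60 Twist2 sites, and no test was made of these counts.

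At the deposited threshold the 3 loci differed in how many lists shared a site. Of the 52 Hand2 sites with a call in wt, 13 (25%) were called in all 6 wt lists, against 17.8% (8 of 45) at Twist2 and 7.89% (3 of 38) at Twist1. Over the genome 10.4% of merged sites with a wt call were in all 6 wt lists, and the median over windows of protein-coding genes was 9.52%, with the 95th percentile at 24%. Per Mb of window this made 32.2 sites in all 6 wt lists at Hand2, 17.9 at Twist2 and 7.46 at Twist1, against a median of 6.15 per Mb over coding-gene windows, and 0.329%, 5.61% and 37.9% of those windows were at least as dense. At this threshold Hand2 lay near the top of the range, Twist2 within its upper part and Twist1 near the middle. The order of the counts (13, 8 and 3) did not hold under stricter ones, with 1 site at each gene at a fold enrichment of at least 5, and with 4 at Hand2, 4 at Twist2 and 3 at Twist1 at a -log10 q of at least 5. With the top 20000 intervals of each list they were 5, 5 and 2. Across all 9 lists, 13 Hand2, 7 Twist2 and 3 Twist1 sites were shared, which is 12.9% of the 178 sites beside 6.4% of all merged sites off chromosome 2. Sites in 1 list only numbered 76 of the 178 (42.7%), beside 50% of all merged sites off chromosome 2. Of the 76, 26 were in the 542 HOXD13 E11.5 list, which has the most intervals, and the genome share for that list was not computed.

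**Figure D1:**
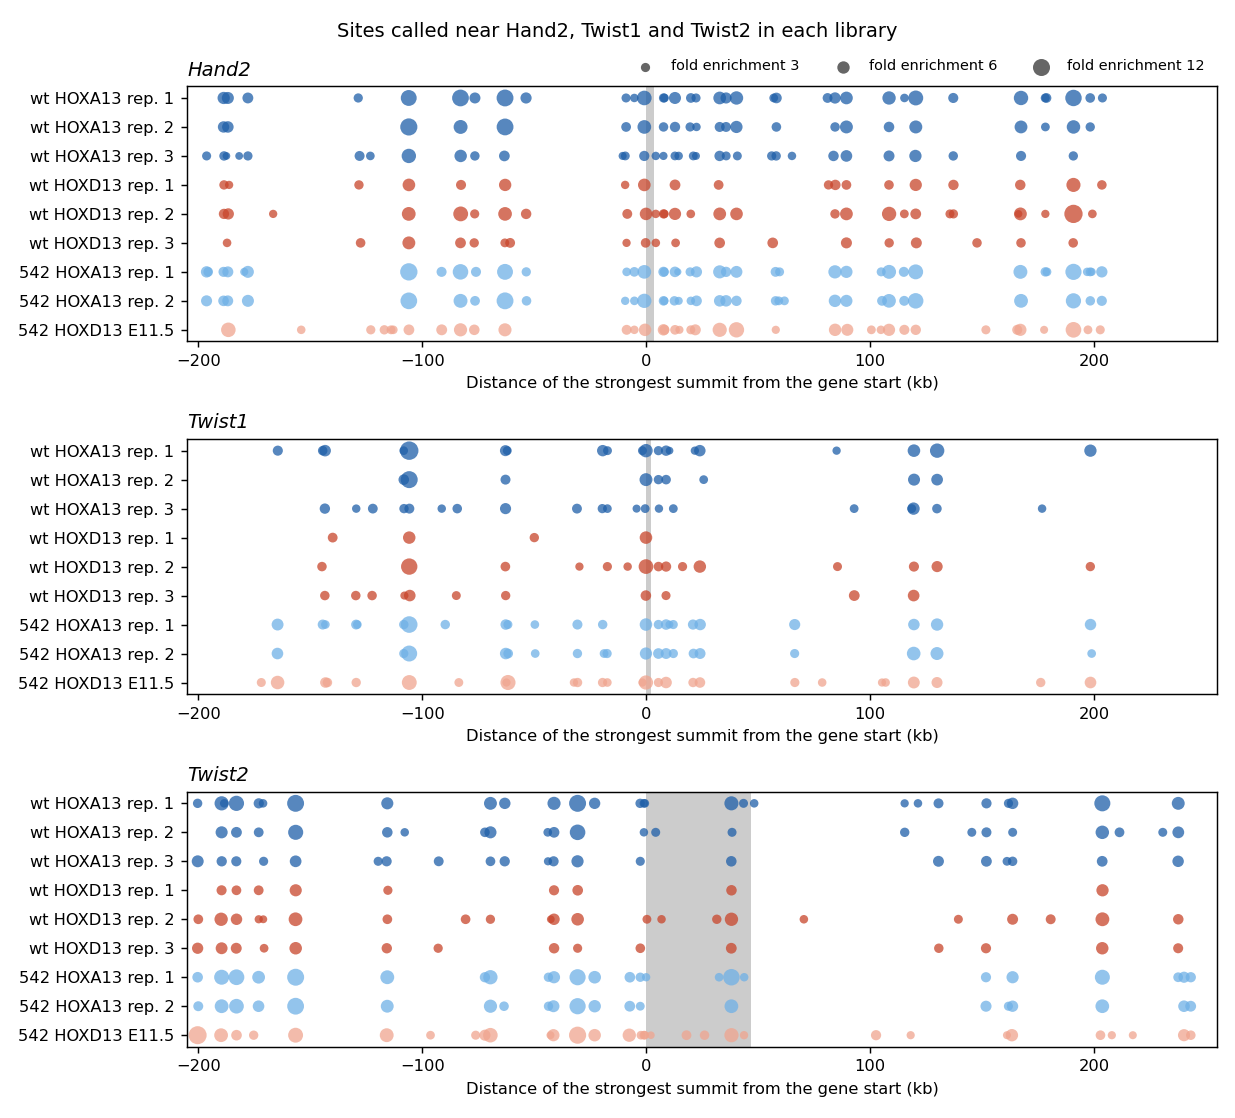
Each point is a site called in 1 library, placed at its strongest summit in that library (x axis, kb from the gene start, gene body in grey), with 1 row per library and point area rising with the deposited fold enrichment. Columns of points through all 9 rows are the sites shared by every list, 13 at Hand2, 2 at Twist1 and 7 at Twist2, with 1 further Twist1 site not drawn.

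Interval counts were highest at Hand2 in every library. Around Hand2 the wt HOXA13 lists held 36, 25 and 36 intervals, the wt HOXD13 lists 19, 32 and 20, the 542 HOXA13 lists 43 and 37 and the 542 HOXD13 E11.5 list 37. Around Twist2 the same lists held 28, 22 and 21, then 9, 23 and 14, then 25 and 21, and 32 intervals. Around Twist1 they held 22, 11 and 21, then 5, 16 and 12, then 27 and 21, and 30 intervals. By count, Twist2 exceeded Twist1 in 6 libraries, the exceptions being wt HOXA13 replicate 3 and both 542 HOXA13 libraries. The Twist2 window is wider (0.447 against 0.402 Mb). Per Mb, Twist2 lay below Twist1 in these exceptions and also in 542 HOXD13 E11.5 (71.7 against 74.6). Between 0.146% and 5.43% of coding-gene windows were at least as dense as the Hand2 window. For Twist1 that share ran from 3.87% to 55.8% and for Twist2 from 7.09% to 37.8%. Twist1 fell below the median coding-gene window in wt HOXA13 replicate 2 (27.4 against 29.3 intervals per Mb) and in wt HOXD13 replicate 2 (39.8 against 43.9).

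**Figure D2:**
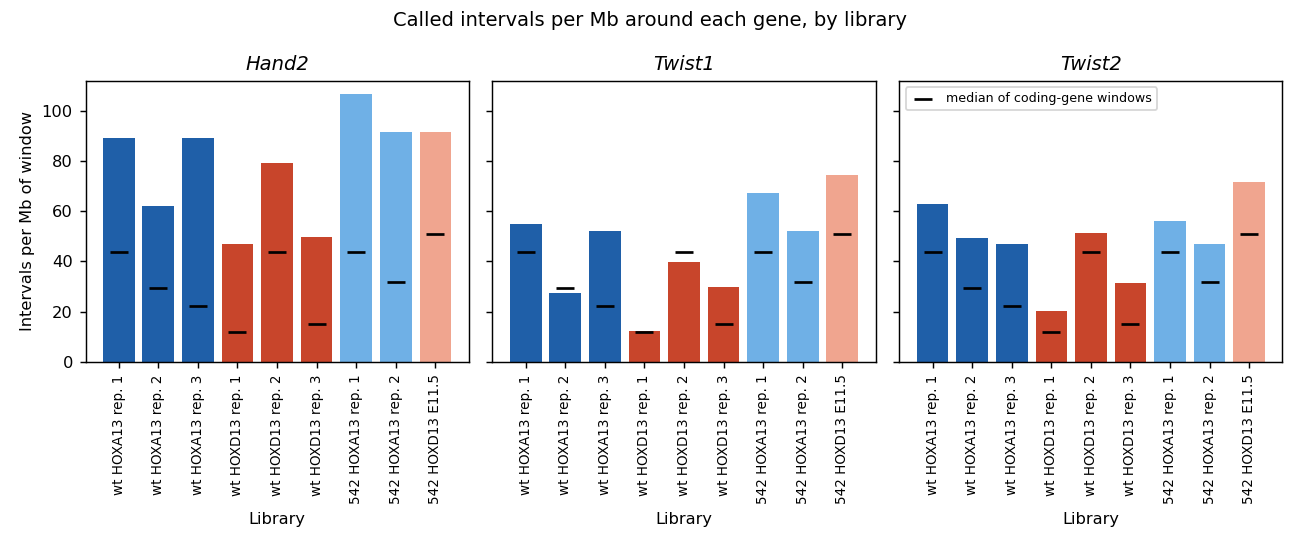
Bars give called intervals per Mb of each gene window (y axis) in each of the 9 libraries (x axis), and black dashes give the median over windows of all protein-coding genes in the same library. The Hand2 bars stand above the dash in all 9 libraries, whereas 2 of the Twist1 bars lie below it.

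Promoter sites, those with a summit within 1 kb of an annotated start, differed between the genes. Hand2 and Twist1 each had 1 promoter site, called in all 9 lists. Twist2 had 1, called in 4 lists. A summit within 1 kb of a start was found in all 6 wt lists at 19.7% of 21911 protein-coding genes, in all 9 lists at 19.8% of those off chromosome 2, and in at least 1 wt list at 63%.

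The Hand2 promoter site (chr8:57319693-57321499) spanned the gene start at position 57320983, and its strongest summit lay in an intron of Hand2os1, the long noncoding RNA transcribed away from Hand2, which also has a start within 1 kb. The deposited fold enrichment, the pileup at the summit over the local background, was 8.67, 7.5 and 3.88 in wt HOXA13, 6.29, 6.2 and 3.36 in wt HOXD13, 7.47 and 8.25 in 542 HOXA13 and 6.16 in the 542 HOXD13 E11.5 library. Replicate 3 was the lowest of each wt group, and the antibody groups overlapped. The site ranked high in each list, between the 85.9th and 98.4th percentile by -log10 p. The strongest summit was less fixed than the site, lying at 57320113, 57320126 or 57320137 in wt HOXA13 and at 57320125 and 57320138 in 542 HOXA13. In HOXD13 it lay at 57320132, 57320907 and 57320716 in wt and at 57320473 in the E11.5 library, that is closer to the gene start in 3 of the 4 HOXD13 lists than in any HOXA13 list. How often summits of shared sites split this way by antibody was not computed.

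The Twist1 promoter site (chr12:33956710-33958029) was intergenic at its strongest summit, just upstream of the gene start at position 33957671. Its fold enrichment was 7.15, 6.62 and 2.71 in wt HOXA13, 6.21, 8.77 and 4.18 in wt HOXD13, 6.18 and 5.87 in 542 HOXA13 and 8.19 in 542 HOXD13 E11.5. Replicate 3 was again the lowest of each wt group. The strongest summit lay between 33957514 and 33957572 in 8 lists and at 33957200 in wt HOXA13 replicate 3.

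The Twist2 promoter site (chr1:91800686-91801964) had its strongest summit in the coding exon of Twist2, inside the overlapping antisense gene Gm29100. It was called in wt HOXA13 replicate 1, wt HOXD13 replicate 2, 542 HOXA13 replicate 1 and 542 HOXD13 E11.5, with fold enrichments of 2.57, 2.75, 2.33 and 2.54 and percentiles of at most 46.6. The strongest summit lay upstream of the gene start at 91801461 in 3 of the 4 lists (91800838, 91801426 and 91800836) and past it, at 91801773, in wt HOXD13 replicate 2. These 4 lists hold the most intervals of the 9, and the part that list length plays in the absence from the other 5 was not tested. A further site just beyond 1 kb, Twist2 -1.0 kb (chr1:91800291-91800606), was in wt HOXA13 replicates 1 and 2 and 542 HOXD13 E11.5, at 2.51, 2.44 and 2.69.

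Distal sites made up 175 of the 178 and contained 21 of the 23 shared by all 9 lists. By position of the strongest summit, 109 of the distal sites were intergenic, 55 in introns and 11 in an exon or untranslated region. Around Hand2 the introns were those of Scrg1, of Sap30 and of noncoding genes. They were those of Hdac9 and the noncoding Gm40383 around Twist1, and of Hdac4, Twist2 and the noncoding Gm28380 around Twist2. Of all sites, 15 lay within 1 kb of the start of another gene, and 5 of these were among the 23. Most were around Hand2, with 11 of its 67 sites and 4 of its 13 sites in all 9 lists. Twist1 had 1 such site, not in all 9 lists, and Twist2 had 3, of which 1 was in all 9.

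Of the 5 best ranked distal Hand2 sites, 3 lay upstream of the gene and 2 downstream. Hand2 -106.0 kb (chr8:57214035-57215579) was intergenic and had fold enrichments of 10.4, 12.2 and 8.34 in wt HOXA13, 6.29, 7.61 and 6.59 in wt HOXD13, 12.44 and 11.51 in 542 HOXA13 and 4.37 in 542 HOXD13 E11.5. On this scale the 3 wt HOXA13 values lay above the 3 wt HOXD13 values, and the share of all sites where this held was not computed. The strongest summits of the site in the 9 lists lay within 82 bp. Hand2 -63.0 kb (chr8:57256903-57258498) had 11.8, 11.7 and 4.33 in wt HOXA13, 5.98, 7.48 and 2.72 in wt HOXD13, 10.3 and 11.7 in 542 HOXA13 and 6.8 in 542 HOXD13 E11.5. Here the wt groups overlapped through replicate 3. Hand2 -82.9 kb (chr8:57237633-57238849) had 11.6, 7.79 and 6.09 in wt HOXA13, 3.71, 8.94 and 4.4 in wt HOXD13, 9.87 and 7.77 in 542 HOXA13 and 6.93 in 542 HOXD13 E11.5. The wt groups overlapped at this site too.

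Both downstream sites lay near starts of neighbouring genes. Hand2 +190.7 kb (chr8:57510965-57512355) had a summit within 1 kb of the start of Hmgb2, a chromatin protein gene, and ranged from 3.1 to 11.1 in wt HOXA13 and from 3.3 to 13.9 in wt HOXD13. Hand2 +167.0 kb (chr8:57487457-57488771) had a summit within 1 kb of the start of Sap30, a subunit gene of the Sin3 corepressor, with 3.76 to 8.37 in wt HOXA13 and 3.26 to 6.54 in wt HOXD13. In both cases replicate 3 was the lowest of each antibody in wt.

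Around Twist1, 2 distal sites were in all 9 lists, and 1 of them is described here. Twist1 -105.8 kb (chr12:33851062-33852492), upstream and intergenic, had fold enrichments of 14.2, 11.9 and 3.65 in wt HOXA13, 6.11, 11 and 5.2 in wt HOXD13, 11.4 and 10.4 in 542 HOXA13 and 8.98 in 542 HOXD13 E11.5. The antibody groups overlapped at this site. Twist1 +119.3 kb and Twist1 -62.8 kb were missing only from wt HOXD13 replicate 1, the shortest list, and Twist1 +8.9 kb from that list and wt HOXA13 replicate 3.

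Around Twist2 the 2 highest sites were upstream and intergenic. Twist2 -30.6 kb (chr1:91770077-91771605) had fold enrichments of 11.9, 9.92 and 5.82 in wt HOXA13, 4.25, 6.23 and 2.95 in wt HOXD13, 10.7 and 10.8 in 542 HOXA13 and 12.2 in 542 HOXD13 E11.5. The E11.5 HOXD13 library, the only one from 542, was higher here than each wt HOXD13 library, whereas Hand2 -106.0 kb was lower in it than in each of them. This single library also differs from wt in titled stage, genotype and mapping genome. The share of all sites where it lay outside the wt HOXD13 range was not computed. Twist2 -156.5 kb (chr1:91644388-91645867) had 11.8, 9.25 and 5.3 in wt HOXA13, 5.76, 7.56 and 6.18 in wt HOXD13, 11.9 and 11.6 in 542 HOXA13 and 9.03 in 542 HOXD13 E11.5. Strongest summits fell within 83 bp at the first and within 86 bp at the second. A spread of at most 100 bp over the 9 lists was found at 4 of the 23 shared member sites (17.4%) and at 19.8% of all sites shared by 9 lists.

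**Figure D3:**
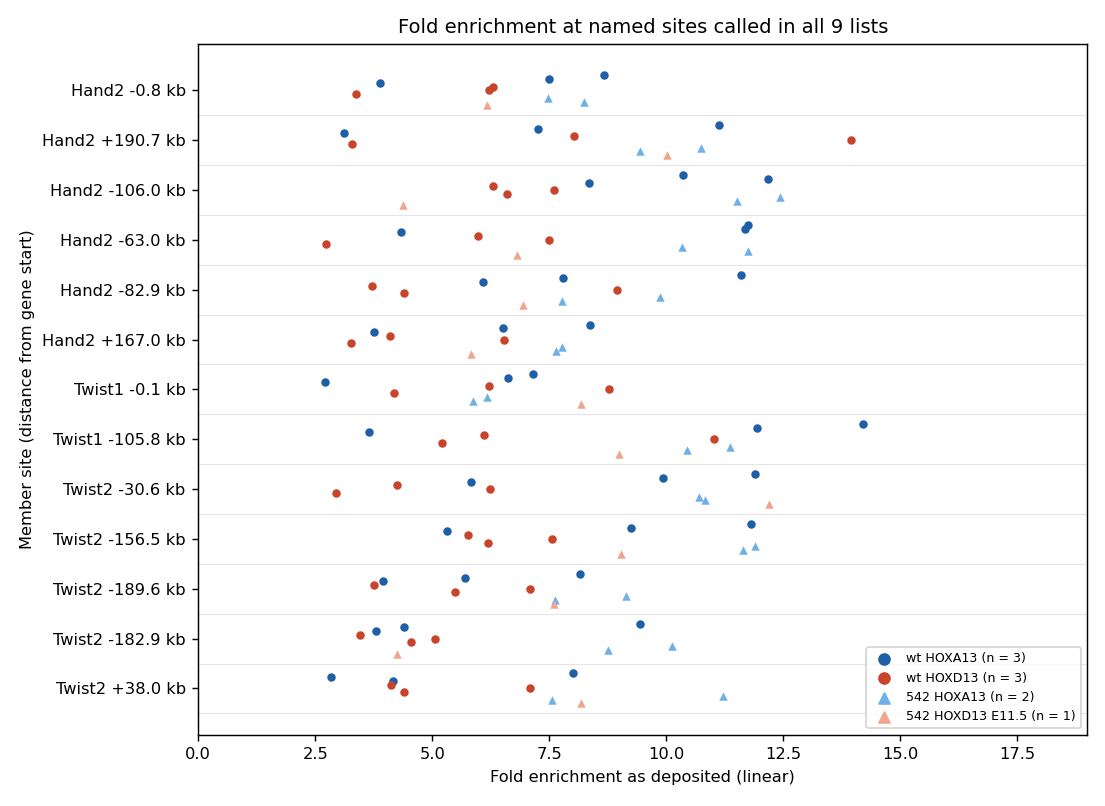
Deposited fold enrichment (x axis, linear) at 13 named sites called in all 9 lists (rows), 1 point per library, circles for wt and triangles for 542. At Hand2 -106.0 kb the wt HOXA13 circles (8.34 to 12.2) lie above the wt HOXD13 circles (6.29 to 7.61), while at the other 12 sites the wt antibody ranges overlap. The share of all sites without overlap on this scale was not computed. As pileup over the library median, the wt groups at Hand2 -106.0 kb overlap.

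The wt libraries ask whether HOXA13 and HOXD13 occupy the same sites of these genes. Of the 135 sites with a wt call, 63 (46.7%) were called with both antibodies, 50 (37%) with HOXA13 alone and 22 (16.3%) with HOXD13 alone. Over all merged sites with a wt call the shares were 43.5%, 37.2% and 19.3%, close to those of the members. Sites in at least 2 wt lists of one antibody and none of the other numbered 10 for HOXA13 and 0 for HOXD13, where the genome gave 6.63% and 0.482% of sites with a wt call, read against 10 and 0 of 135 here. The HOXD13 lists are shorter in 2 of 3 replicates. The 10 included Hand2 +21.9 kb, with 2.89, 2.42 and 2.06 in wt HOXA13, which was also called in 542 HOXA13 at 4.78 and 4.36 and in 542 HOXD13 E11.5 at 4.58. Also among them were Hand2 +58.1 kb and Hand2 +35.7 kb in all 3 wt HOXA13 lists, and Twist1 -19.4 kb, Twist2 -43.7 kb and Twist2 -63.1 kb in 2 of 3. Although no wt HOXD13 list held them, the 542 HOXD13 E11.5 list did hold Twist1 -19.4 kb at 3.08 and Hand2 +58.1 kb at 2.25.

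As shares of the list, windows did not separate the antibodies. Per 10000 intervals, the Hand2 window held 4.89 ± 1.199 (SD, n = 3) in wt HOXA13 and 5.81 ± 1.93 (SD, n = 3) in wt HOXD13 (two-sided exact permutation test, p = 0.6). Twist1 held 2.69 ± 0.903 and 2.45 ± 0.639 (exact p = 0.7), and Twist2 3.54 ± 0.284 and 3.49 ± 0.433 (exact p = 0.9). The groups overlapped for all 3 genes, as they did for most coding-gene windows, HOXA13 lying above HOXD13 in every pair at 2.71% and below at 9.02%. With 3 against 3 libraries p cannot go below 0.1, and the Benjamini-Hochberg value over the 6 share tests made was 1 for each of these.

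Signal heights could be compared at the 24 member sites called in all 6 wt lists. Heights were pileups, numbers of overlapping read ends, divided by the library median over the 13950 sites of the genome called in all 6. At the Twist1 promoter they were 0.981, 1.21 and 1.02 in HOXA13 and 2.12, 2.22 and 1.83 in HOXD13, so all HOXD13 libraries lay above all HOXA13 libraries (log2 HOXA13 over HOXD13 -0.94 ± 0.26 SE, limma, adjusted p = 0.134). At Twist2 -30.6 kb they were 2.04, 2.23 and 1.07 in HOXA13 and 0.885, 1.04 and 0.483 in HOXD13, the opposite order (log2 1.15 ± 0.38 SE, adjusted p = 0.179). At Hand2 -106.0 kb they were 2.42, 3.41 and 3.38 in HOXA13 and 1.42, 1.35 and 2.48 in HOXD13, which overlapped (log2 0.85 ± 0.32 SE, adjusted p = 0.212). At the Hand2 promoter the values of 3.15, 2.79 and 2.35 in HOXA13 and 2.88, 2.97 and 2 in HOXD13 differed by less than their spread (log2 0.09 ± 0.29 SE, adjusted p = 0.888).

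No member site passed an adjusted p of 0.05 in this fit, and 3 of 24 had an unadjusted p under 0.05. Over the genome 0% of sites were called higher with HOXA13 and 0.0717% higher with HOXD13. Of the 13950 sites, 1300 higher with HOXA13 and 1307 higher with HOXD13 had an unadjusted p under 0.05. Groups did not overlap at 2 member sites with HOXA13 higher and 2 with HOXD13 higher, against 11.9% and 13.2% of sites of the genome. The other pair besides those above were Hand2 -82.9 kb (HOXA13 higher) and Twist2 -41.2 kb (HOXD13 higher), the latter named after its values were seen. With replicate number as a block, 10.4% of sites were called higher with HOXA13 and 8.06% higher with HOXD13, and 4 member sites passed. These were Twist2 -30.6 kb (adjusted p = 0.000479) and Hand2 -106.0 kb (0.00908) with HOXA13 higher, and the Twist1 promoter (0.00389) and Hand2 +190.7 kb (0.0188) with HOXD13 higher. Scaling by read ends in place of the library median moved the median over all sites from 0.00 to 0.53 on the log2 scale, and left 0 member sites called. On the deposited fold enrichment the Twist1 promoter difference shrank to a log2 of -0.28 ± 0.43 SE. Without wt HOXA13 replicate 3, the fit called 2.34% of sites of the genome higher with HOXA13 and 1.42% higher with HOXD13, and 1 of the 24 member sites was called, Twist2 -30.6 kb (log2 1.48 ± 0.35 SE, adjusted p = 0.0483).

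**Figure D4:**
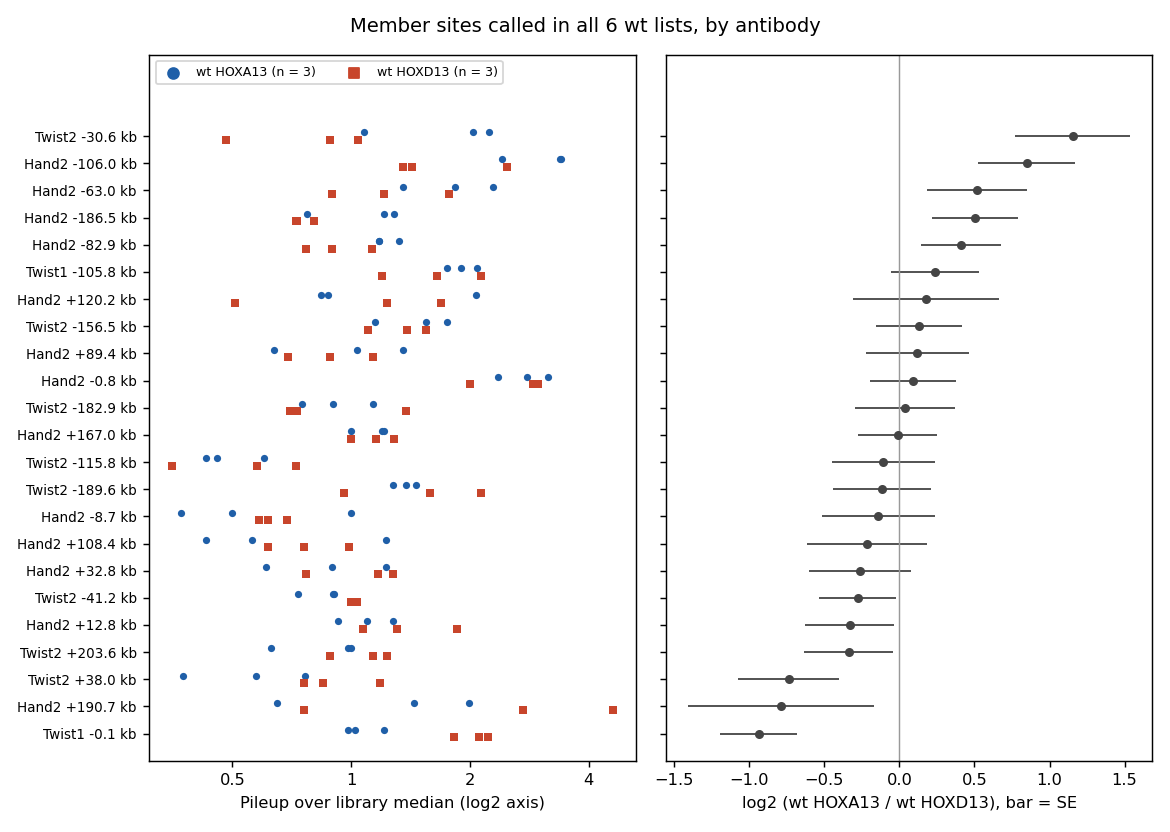
Left, pileup over the library median (log2 axis) in each wt library at 23 of the 24 member sites called in all 6 wt lists, HOXA13 as circles and HOXD13 as squares. Right, the log2 ratio of the antibodies with its SE. Among the sites drawn the ratio runs from 1.15 at Twist2 -30.6 kb to -0.94 at the Twist1 promoter (Twist1 -0.1 kb), and no site passed an adjusted p of 0.05.

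The 542 HOXA13 libraries ask whether HOXA13 binding at these genes differed in embryos carrying the extra II1 copy on another chromosome. As a share of the list, the Twist2 window held 2.67 ± 0.213 intervals per 10000 (SD, n = 2) in 542 and 3.54 ± 0.284 (SD, n = 3) in wt. The groups did not overlap (two-sided exact permutation p = 0.1, the smallest that 2 against 3 allows, and 0.6 after Benjamini-Hochberg adjustment over the 6 tests), and wt lay above 542 in every pair at 15.4% of coding-gene windows. Hand2 held 4.66 ± 0.451 in 542 and 4.89 ± 1.199 in wt (exact p = 1), and Twist1 2.78 ± 0.0707 and 2.69 ± 0.903 (exact p = 0.7), with overlapping groups. Over coding-gene windows 542 lay above wt in every pair at 8.39%.

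Heights were compared at the 39 member sites called in all 5 HOXA13 lists. They were scaled by the library median over the 26124 sites off chromosome 2 called in all 5. At Hand2 -106.0 kb they were 2.24 and 2.57 in 542 and 3.68, 5.03 and 4.66 in wt, with both 542 libraries below all wt libraries (log2 542 over wt -0.88 ± 0.29 SE, limma, adjusted p = 0.157). At Hand2 +21.9 kb they were 1.45 and 1.25 in 542 and 0.667, 0.737 and 0.966 in wt (log2 0.78 ± 0.28 SE, adjusted p = 0.187), also without overlap. The Hand2 promoter stood at 5.34 and 5.51 in 542 and at 4.8, 4.11 and 3.24 in wt (log2 0.44 ± 0.30 SE, adjusted p = 0.461), with both 542 libraries above. The Twist1 promoter stood at 1.72 and 1.58 in 542 and at 1.49, 1.79 and 1.41 in wt (log2 0.08 ± 0.27 SE, adjusted p = 0.895).

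None of the 39 passed an adjusted p of 0.05 by limma, as 0% of sites of the genome did in either direction. An unadjusted p under 0.05 was found at 3 of the 39. Of the 26124 sites of the genome, 2109 higher and 2796 lower in 542 were at that level. Heights in 542 lay above all wt libraries at 6 member sites and below all of them at 7, where the genome gave 18.5% and 21.6%. Without wt HOXA13 replicate 3 the fit called 12.1% of sites higher and 12.8% lower in 542, and 6 member sites, 5 of which are described here. Of the sites above, Hand2 -106.0 kb (adjusted p = 0.000424) was then called lower and Hand2 +21.9 kb (0.00396) higher. The others were Hand2 +40.3 kb (log2 -0.76, adjusted p = 0.0216) and Twist2 +203.6 kb (-0.71, 0.0219), called lower, and Hand2 +84.3 kb (0.69, 0.0203), called higher. The first 2 of these were higher in 542 by a log2 of 0.08 and 0.12 when all 5 libraries were scaled by read ends, a scaling that moved the median over all sites from -0.04 to 0.52. The same 6 sites passed with replicate number as a block. As wt replicate 3 has no partner, that fit used the same libraries and is no separate check. It called 3437 of the 26124 sites of the genome higher and 3739 lower in 542. For Hand2 -106.0 kb the direction depended on the measure, since on the deposited fold enrichment 542 was higher by a log2 of 0.23 ± 0.49 SE.

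**Figure D5:**
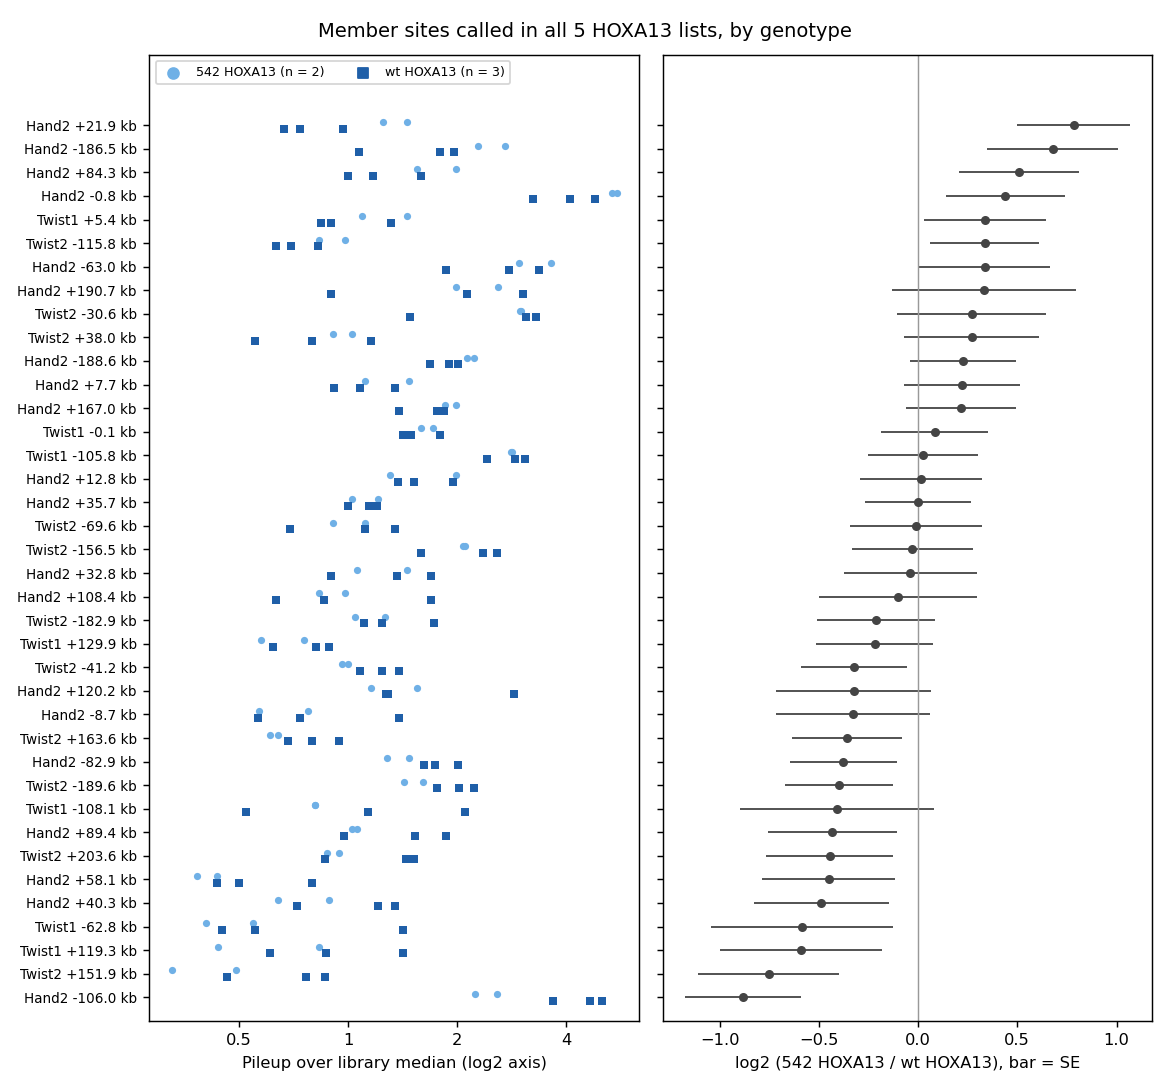
Left, pileup over the library median (log2 axis) at 38 of the 39 member sites called in all 5 HOXA13 lists, circles for 542 and squares for wt. Right, the log2 ratio of 542 to wt with its SE, which among the sites drawn runs from 0.78 at Hand2 +21.9 kb to -0.88 at Hand2 -106.0 kb. No site was past an adjusted p of 0.05.

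Calls found in 542 lists alone were at the level of the genome. Sites in at least 2 of the 3 542 lists and in no wt list numbered 10 of 178 (5.62%), against 7.41% of all merged sites off chromosome 2. In all 3 of these lists were Twist1 +20.9 kb, Twist1 +66.3 kb, Twist2 -7.6 kb, Twist2 +240.1 kb and Twist2 +243.1 kb, named after their values were seen. Their fold enrichments ran from 2.94 to 7.06, and the highest was Twist2 -7.6 kb in 542 HOXD13 E11.5. The genome share for all 3 lists was not computed, so these 5 sites (2.81% of 178) are description only. The 3 lists also differ in antibody and in titled stage.

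Relatives and partners of the 3 proteins were taken from a fixed list of 17 genes. A promoter summit in all 6 wt lists was found at 3 of the 17, beside the 19.7% of coding genes above. Among the E proteins, the dimer partners, Tcf3 and Tcf4 had one in 6 wt lists and Tcf12 in 5. Among the Id inhibitors, Id3 had one in 6 wt lists, Id2 and Id4 in 3 and Id1 in 0. Of 10 class II bHLH relatives none reached 6. Tcf24 had a promoter summit in 4 wt lists, Msc, a repressor of myogenic bHLH factors, in 3, and Scx, the tendon regulator, and Tcf21 in 2. Ferd3l, Tcf15, Ptf1a and Figla had one in 1, and Hand1, the paralogue of Hand2, and Tcf23 in 0. Hand1 nevertheless had 7 sites in all 6 wt lists within its window (17.3 per Mb), near the Twist2 value, and Hand2 was the densest of all 20 genes. Tcf4 followed with 22.8 per Mb and Id3 with 19.9, while Tcf12 had 1.49. Ferd3l neighbours Twist1 and their windows overlap, so their counts are not independent.

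The genes whose window share over the 9 libraries ran most like that of each member were found by Pearson's r of log2 shares, after adding 0.5. For Hand2 they were Gal3st2c (r = 0.967), Nppc (0.963) and Cped1 (0.953). For Twist1 they were Anks1b (0.970), Cdo1 (0.947) and Nebl (0.929), and for Twist2 Cmpk2 (0.946), Enpp4 (0.940) and Rai14 (0.939). The 9 points share libraries and list lengths, and each was picked from 11405 to 11408 windows, so the values are descriptions only.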

How the data were processed

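The 9 libraries were analysed from 1 peak list each, called per library and not on pooled reads. Per the study's methods, reads were trimmed with cutadapt and aligned with Bowtie2 on mm10 for wt and on the mutant genome for 542. They were kept at a mapping quality of at least 30. The paper states that PCR duplicates were removed with Picard, while its printed command has removal switched off. Single read ends, each widened to 200 bp centred on the end, were passed to MACS2 without a control. MACS2 was set to keep all duplicates, with summits called and a q of 0.05. Without a control library, a region was called against local background alone, and the number of weak calls can change with depth. Fold enrichment, deposited by the authors from MACS2, divides the summit's pileup by its local background, and the deposited -log10 p and -log10 q values are MACS2's own. The deposited score is MACS2's integer display score and was not used.

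Summit rows of 1 interval were joined, and overlapping intervals of the 9 lists were merged into sites. Gene models were GENCODE vM21 basic and sequence was RefSeq GRCm38, which has the coordinates of mm10. Pileups were recovered from fold enrichment and -log10 p, and came out whole within 0.01 for 99.933% to 100% of rows. Log2 heights over the library median were tested by limma over all sites called in every library compared, without a block, with Benjamini-Hochberg adjustment. Window shares were tested by exact permutation. In simulated data, 69% of sites changed 4-fold and 8% of those changed 2-fold were called for HOXA13 against HOXD13 (13950 sites), and 32.5% and 0.5% for 542 against wt (26124 sites).

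The promoter sites, the 5 other sites of each gene in most lists, up to 3 sites of each gene found with 1 antibody in wt, and member sites past the threshold were named, with values from single fits also for sites with an unadjusted p under 0.05 or past the threshold with the block. Ties were broken by the median percentile of -log10 p in the lists. The genes, their windows and the list of 17 relatives and partners were chosen with earlier results of these data known. Values of 1 Twist1 site that enters the counts are not reported here. Alternatives were other scalings, thresholds, windows and libraries and a replicate block. The scripts used Python 3.11.15, pandas 2.3.3, numpy 2.4.6, scipy 1.17.1, pysam 0.24.0, R 4.3.3 and limma 3.58.1.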

Additional observations from a re-analysis of the deposited data

Results flagged for a closer look

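The 542 HOXD13 E11.5 library is the only one of its group and entered no test. Its list nevertheless held 37 intervals in the Hand2 window, 30 in the Twist1 window and 32 in the Twist2 window, and no library without antibody was analysed here for comparison.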

How the results depend on the processing

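Calls of single sites depended on the libraries and the scaling. For HOXA13 against HOXD13, limma called 10 sites of the genome, 0 with pileup scaled by read ends, 1 with the deposited fold enrichment, 3333 with replicates 1 and 2 only and 2571 with a replicate block. Leaving out 1 library at a time gave 0 to 525. Of the 24 member sites, 0 were called, 4 with replicates 1 and 2 only, 4 with the block and 0 to 1 without 1 library. For 542 against wt, 0 sites were called, 273 scaled by read ends, 3 on fold enrichment, 6508 with replicates 1 and 2 only, 7176 with the block and 0 to 6508 without 1 library, the highest without wt HOXA13 replicate 3. Of the 39 member sites, 6 were called with replicates 1 and 2 only, 6 with the block and 0 to 6 without 1 library. For 542 against wt, the block, replicates 1 and 2 only and the fit without wt HOXA13 replicate 3 used the same libraries. Where 1 library of 542 remained, it was assumed to vary like the wt group. The cause of these changes was not tested.

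Replicate numbers are shared between groups, but the labels do not say that a number marks a shared litter or day. Deviations of same-numbered HOXA13 and HOXD13 libraries correlated at 0.0458, 0.380 and 0.685 over heights at 13950 sites, and at 0.111, 0.143 and 0.349 over presence among the 10000 strongest intervals. HOXA13 replicate 1 went best with HOXD13 replicate 2 in both (0.631 and 0.219), so the pairing was left out of the fit reported. Replicate 3 of each antibody correlated negatively with replicates 1 and 2 of the other. These values ran from -0.620 to -0.167 over heights and from -0.269 to -0.178 over presence. Over heights, deviations were taken from the mean of each antibody, so they sum to 0 at each site. With a positive value for the replicate 3 pair, the negative values are partly fixed in advance and are no separate result. The paper lists longer reads for both replicate 3 libraries than for the other wt libraries, and the part of read length was not tested.

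Direction changed at these sites, the difference at Hand2 -106.0 kb being one of the larger ones reported for 542. Without 1 library, HOXA13 over HOXD13 ran on the log2 scale from -0.095 to 0.200 at the Hand2 promoter. For 542 over wt, Hand2 -106.0 kb was 0.235 on fold enrichment, Hand2 +40.3 kb was 0.078 scaled by read ends, and Twist2 +203.6 kb was 0.119 scaled by read ends and 0.261 on fold enrichment.

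The log2 ratios of window shares also changed sign. For HOXA13 over HOXD13, Hand2 gave 0.216 at a fold enrichment of at least 5, 0.003 with the top 20000 intervals, 0.001 with 100 kb and 0.038 with 500 kb on either side, and -0.436 to 0.029 without 1 library. Twist1 gave -0.562 at that enrichment, -0.074 with the top 20000, -0.172 with 500 kb and -0.142 to 0.341 without 1 library. Twist2 gave -0.158 at that enrichment, -0.106 at a -log10 q of at least 5, -0.063 with 500 kb and -0.081 to 0.093 without 1 library. For 542 over wt, Hand2 gave 0.230 with the top 20000, 0.015 over summit rows, 0.020 with 500 kb, 0.145 with replicates 1 and 2 only and -0.154 to 0.145 without 1 library. Twist1 gave -0.315 at that enrichment, -0.115 at that q, -0.054 over summit rows and -0.134 to 0.349 without 1 library. Twist2 gave 0.006 with the top 20000 and -0.487 to -0.324 without 1 library.

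Counts of sites fell with stricter thresholds, and the order of the 3 genes was lost. Sites in all 6 wt lists numbered 1 at Hand2, 1 at Twist1 and 1 at Twist2 at a fold enrichment of at least 5, 4 at Hand2 and 4 at Twist2 at a -log10 q of at least 5, and 5 at each of these with the top 20000 intervals. With 2500 bp as the limit, Twist1 had 2 promoter sites and Twist2 had 4. The consensus was present at 21.35% of member sites within 100 bp, 26.4% within 200 bp and 44.38% for the core RTAAA alone, beside 18.38%, 26.34% and 38.58% of all merged sites off chromosome 2.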
